A study of Mus musculus with 18 samples.

Results

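The matrix metalloproteinases, the ADAMTS proteases and their tissue inhibitors were examined as 46 genes, all those whose symbol carries a family name: 23 Mmp genes, 19 Adamts genes and 4 Timp genes, of 24421 gene symbols counted in bone marrow (BM) mesenchymal cells. RNA was sequenced from 18 libraries in 6 groups of 3. In culture, BM mesenchymal stromal cells (MSCs, sorted as CD51+/PDGFRα+) came from C57BL/6 mice aged 4 to 6 months that were Pot1awild/wild or Pot1aflox/flox, POT1a being a protein of the telomere cap, and all 12 cultures carried the flox-stop-flox tdTomato reporter and received Cre in vesicles before tdTomato+ cells were sorted again. They were collected at week 1 or week 4 and are labelled Pot1awt/wt (wt/wt) or Pot1aΔ/Δ (Δ/Δ). The sorted cells were tdTomato+ cells taken straight from the BM of mice aged 2 weeks, titled Pot1awt/Δ (wt/Δ, 3 libraries) or Pot1aΔ/Δ (3 libraries). All 6 of these carried NG2-cre and loxp-tdTomato, and their genotype label reads POT1afl/fl for both titles, so the groups rest on the titles. NG2-cre acts in pericytes throughout the body and from development onwards. In the study's flow cytometry of BM the reporter signal was placed in the PDGFRα+CD51+ MSCs that lack CD45, TER119 and CD31, while the labels name tdTomato alone for the sort that gave RNA.

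Matrix metalloproteinases are zinc-dependent enzymes, made as inactive proforms, that cut collagens, gelatin and other proteins of the extracellular matrix and shed proteins from the cell surface. ADAMTS proteases are their secreted relatives with thrombospondin repeats, and different members cut large proteoglycans, trim the ends of new collagen molecules or act on microfibrils. TIMPs bind the active site of these enzymes and block it, and TIMP3 is unusual among them in binding to the matrix and in inhibiting ADAMTS proteases well. In bone, MMP13, MMP14 and MMP9 are known for remodelling cartilage and mineralised matrix during growth.

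The libraries held 12807832 to 90717232 counts in culture and 28918757 to 49992698 counts in sorted cells, and the 46 genes took 0.912% to 1.71% of them. Levels are given as counts per 1000000 counts of the whole library (CPM); where genes are set against each other, CPM are divided by the length of the exons in kilobases (CPM per kb). Pot1a, the targeted gene, was not called lower where the label is Δ/Δ, with 43.5 to 48.6 CPM at week 4 against 32.6 to 39.5 CPM in wt/wt (called higher, log2 0.39, adjusted p = 0.0298), at 31.2 to 37.6 against 32.8 to 35.6 CPM at week 1, and at 19.4 to 32.6 against 24.4 to 35.5 CPM in sorted cells (log2 -0.17, 95% interval -0.72 to 0.37). Counts pool all exons of a gene, and the deleted exons were not counted apart. The replicate 1 libraries of both genotypes at week 4 stood apart from the others of that week, with Cspg4 (NG2) at 6.79 and 6.47 CPM against 19.9 to 54.3 CPM. Results of week 4 were therefore also computed without both. Cultured cells expressed Pdgfra (72.2 to 257.6 CPM) and Itgav (141.6 to 510.0 CPM), the genes of the sorting markers, and were at or near 0 for Ptprc, the pan-leukocyte marker (at most 0.165 CPM). Sorted cells expressed the same genes with Ptprc at 27.8 to 61.5 CPM. Nothing in the labels says which libraries share a mouse, and p-values measure the spread between these libraries.

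Of the 46 genes, 10 Mmp genes lie side by side on chromosome 9 (7272514 to 7699585, GRCm38) and their upstream sequences hold other short motifs, on the whole, than those of the remaining members. RefSeq promoters (GRCm38.p6, 250 bases before the transcription start) were at hand for 32 members. A member was counted if any of its promoters held the motif, while the shares of all are over single promoters, so the 2 are not the same measure. The AP-1 motif TGACTCA, read on either strand, stood in 7 of the 10 members of the cluster and in 0 of the 22 others, against 4.46% of all 32851 promoters. The GC box GGGCGG, on either strand, stood in 0 of 10 and in 16 of 22, against 32.7% of all. The TATA motif TATAAA, on either strand, stood in 7 of 10 and in 2 of 22, against 12.4% of all, and the RUNX motif ACCACA in 4 of 10 and 2 of 22, against 14.1%. The promoters of the cluster member that was highest in every group (Mmp13) and of 4 of its neighbours that stayed near 0 in culture are shown first, because they carry the same AP-1 letters and differ in level, and then those of Mmp11, Timp1 and Timp3, members of the GC box type that differed between genotypes at week 4. All run 5′ to 3′ on the strand of the gene and end at the base before the start. Capitals mark AP-1 motifs, the RUNX motif of Mmp13 and GC boxes.
Mmp13, chr9:7272389-7272513, plus strand: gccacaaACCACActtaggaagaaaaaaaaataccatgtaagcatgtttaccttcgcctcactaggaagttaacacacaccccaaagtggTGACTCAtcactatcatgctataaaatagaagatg
Mmp3, chr9:7445722-7445821, plus strand: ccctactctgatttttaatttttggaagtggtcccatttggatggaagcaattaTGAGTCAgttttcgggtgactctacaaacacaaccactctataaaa
Mmp10, chr9:7502242-7502341, plus strand: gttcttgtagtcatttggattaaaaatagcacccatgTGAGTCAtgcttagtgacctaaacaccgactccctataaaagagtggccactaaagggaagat
Mmp1a, chr9:7464041-7464140, plus strand: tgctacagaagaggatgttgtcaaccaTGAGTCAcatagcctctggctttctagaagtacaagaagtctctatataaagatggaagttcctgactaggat
Mmp12, chr9:7347274-7347373, plus strand: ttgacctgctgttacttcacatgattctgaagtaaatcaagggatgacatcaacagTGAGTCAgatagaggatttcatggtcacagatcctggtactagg
Mmp11, chr10:75932503-75932602, minus strand: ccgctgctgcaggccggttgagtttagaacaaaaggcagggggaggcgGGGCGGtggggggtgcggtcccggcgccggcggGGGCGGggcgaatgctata
Timp1, chrX:20870066-20870165, plus strand: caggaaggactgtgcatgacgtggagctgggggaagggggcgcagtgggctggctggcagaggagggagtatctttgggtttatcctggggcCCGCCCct
Timp3, chr10:86300312-86300411, plus strand: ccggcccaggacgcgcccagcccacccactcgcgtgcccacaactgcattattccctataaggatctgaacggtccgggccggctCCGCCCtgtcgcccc
The AP-1 letters began 35 bases before the start in Mmp13 and 44 to 73 bases before it in the other 4, of which Mmp12 has a second promoter without them. In Mmp13 a RUNX motif lay further out, 118 bases before the start. These matches describe letters in a window and not binding.

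Expression within the cluster was nonetheless uneven. Mmp13, an interstitial collagenase, reached 290.4 to 3352 CPM in culture and 1944 to 4875 CPM in sorted cells. Of the other 9, Mmp10 was the single member to reach 1 CPM in any cultured library, at 1.48 CPM in wt/wt replicate 1 of week 4. Mmp1a was counted at 0 in all 12 cultured libraries, and Mmp3 (stromelysin-1) did not exceed 0.344 CPM there. Sorted cells added Mmp8, the neutrophil collagenase, at 53.6 to 132 CPM, while Mmp10 reached 19 CPM in wt/Δ replicate 2 and lay at 0.0685 to 2.42 CPM in the other 5, and Mmp12 was at 2.51 CPM in Δ/Δ replicate 2 and at 0 in the others. Mmp1a and Mmp1b are close copies, between which the counting of reads is uncertain.

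Across the families, 18 of the 46 genes stayed under 1 CPM in all 12 cultured libraries, and 12 did so in all 18 libraries (Mmp1a, Mmp1b, Mmp3, Mmp7, Mmp20, Mmp21, Mmp24, Adamts8, Adamts13, Adamts16, Adamts19 and Adamts20). Mmp1b and Adamts19 had no count in any library; a count of 0 allows up to 3 counts per library. Per kb of exon, the leading genes of wt/wt MSCs at week 1 were Timp2 (692 CPM per kb), Timp1 (433), Timp3 (429), the gelatinase gene Mmp2 (168) and Mmp14 (114), which encodes the membrane-bound MT1-MMP that activates pro-MMP2. Mmp13 followed at 113 CPM per kb. At week 4 the order of the 2 highest genes differed by genotype. Timp2 (1137 CPM per kb) and Timp3 (762) led in wt/wt, whereas Mmp13 (1116) and Timp2 (885) led in Δ/Δ. In sorted cells of both genotypes Mmp13 led, at 1105 CPM per kb in wt/Δ and 1249.5 in Δ/Δ, followed by Mmp9 (716 and 681) and Adamts1 (252 and 359).

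**Figure D1:**
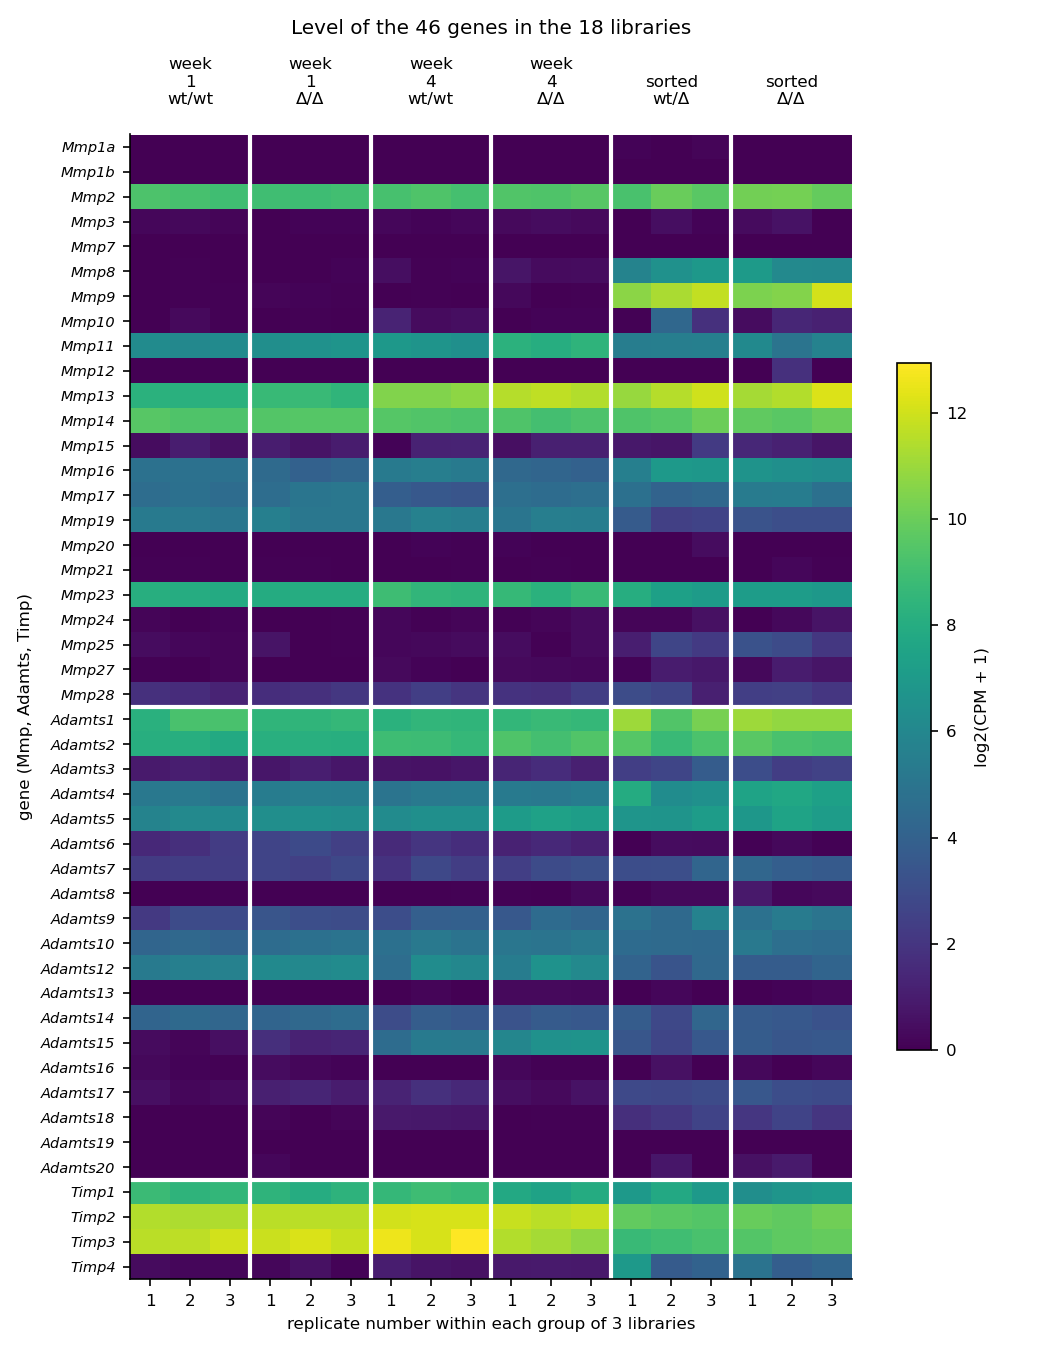
Level of the 46 genes in the 18 libraries, as log2(CPM + 1), with genes in rows by family and libraries in columns by group. Timp2, Timp3, Mmp2, Mmp13, Mmp14 and Adamts1 are bright in culture, Mmp8 and Mmp9 are bright in sorted cells alone, and the 12 genes under 1 CPM in every library are dark throughout.

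The summed level of the inhibitors was closest to that of the metalloproteinases, among cultures, in Δ/Δ at week 4, and its size relative to them depended on the scale. Summed over the 4 Timp genes, the level was 1434 to 1630 CPM per kb in the wt/wt libraries of week 1 and 1604 to 1651 CPM per kb in Δ/Δ, and at week 4 it was 2272 to 2571 CPM per kb in wt/wt and 1267 to 1539 CPM per kb in Δ/Δ. The 23 Mmp genes summed to 515 to 591 CPM per kb and 565 to 588 CPM per kb at week 1, and to 1065 to 1109 and 1681 to 1787 CPM per kb at week 4. The 19 Adamts genes summed to 108 to 169 CPM per kb in wt/wt and 128 to 137 in Δ/Δ at week 1, and to 132 to 155 and 179 to 194 CPM per kb at week 4. The ratio of the Timp sum to the Mmp sum was accordingly 2.66 to 3.16 in wt/wt and 2.81 to 2.84 in Δ/Δ at week 1, 2.11 to 2.32 in wt/wt at week 4 and 0.709 to 0.913 in Δ/Δ at week 4. The groups overlapped at week 1 and did not at week 4. In CPM not divided by length the ratio was 2.98 to 3.96 and 3.47 to 3.87 at week 1, and 2.86 to 3.69 in wt/wt and 1.07 to 1.34 in Δ/Δ at week 4. On that scale the genotypes were again apart at week 4, but the inhibitors exceeded the metalloproteinases in every cultured library, and wt/wt libraries of week 1 and week 4 overlapped. Mmp13 alone made up 49% to 58% of the Mmp sum in wt/wt at week 4 and 61.1% to 70.2% in Δ/Δ, against 19.5% to 22.3% in wt/wt at week 1. These ratios are of RNA and are given without a test, since the members were chosen with results of these data known. Sorted cells had ratios of 0.132 to 0.269, and in them Mmp9 made up 19.4% to 34.5% of the Mmp sum.

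**Figure D2:**
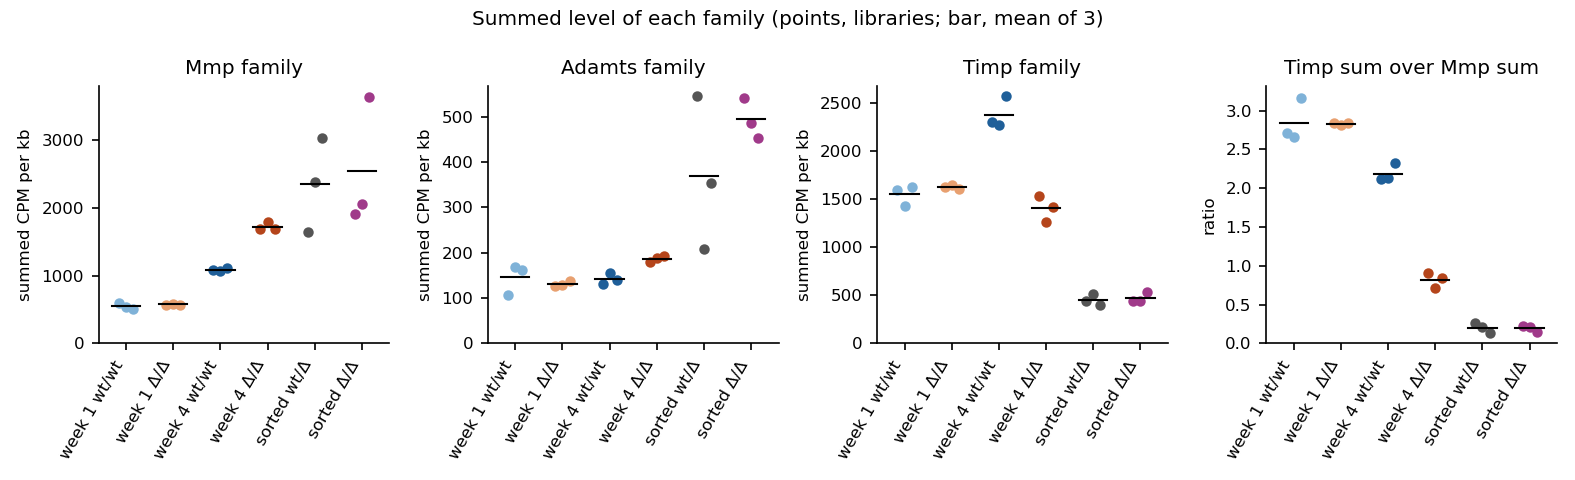
Summed CPM per kb of exon of the Mmp, Adamts and Timp genes in each library, and the ratio of the Timp sum to the Mmp sum, by group; points are libraries and bars the mean of 3. At week 4 the 3 Δ/Δ libraries lie between 0.709 and 0.913 in the ratio, below the 3 wt/wt libraries at 2.11 to 2.32, and the 2 genotypes overlap at week 1. Cultured and sorted libraries come from separate count tables.

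At week 1 the genotypes differed in few of these genes. Of the 28 members with enough counts to test in culture, 2 were higher in Δ/Δ MSCs and none was lower (edgeR quasi-likelihood test, adjusted p under 0.05), against 0.752% and 0.266% of the 13169 genes tested (1.02% in either direction). Adamts15, a protease of the aggrecan and versican cutting group, was at 2.36, 1.32 and 1.53 CPM in Δ/Δ and at 0.308, 0.114 and 0.446 CPM in wt/wt, so that the groups did not overlap at this low level (log2 fold change 2.54 ± 0.44 (SE), adjusted p = 0.0182). Adamts17, an enzyme linked to fibrillin microfibrils, was at 1.21, 1.54 and 0.959 CPM against 0.431, 0.189 and 0.298 CPM (1.95 ± 0.37, adjusted p = 0.0279). Both calls rested on the full set of libraries. The adjusted p of Adamts15 rose to 0.0709, 0.0573 and 0.0563 without wt/wt replicate 2, Δ/Δ replicate 1 or Δ/Δ replicate 3, and that of Adamts17 lay between 0.0604 and 0.125 without wt/wt replicate 2, wt/wt replicate 3 or any 1 of the Δ/Δ libraries.

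The remaining 26 tested members were not called at week 1. In 12 of the 28, every Δ/Δ library lay above every wt/wt library, against 11.6% of all genes tested, and in 1 (Mmp16) every library lay below, against 10.2% (21.8% in either direction). The median log2 fold change of the 28 was 0.33, against -0.0036 for all genes, and it is the same with Adamts18, which had no count in wt/wt, at its bound. Mmp13 had levels of 412, 439.6 and 345 CPM in Δ/Δ and 307, 290.4 and 307 CPM in wt/wt, with an adjusted p of 0.211. For Mmp16 (MT3-MMP) the values were 21.2, 15.1 and 18.2 CPM against 27.1, 27.5 and 27.4 CPM (adjusted p = 0.0746). Of the inhibitors, Timp2 did not overlap between genotypes (3037 to 3083 against 2618 to 2766 CPM, adjusted p = 0.597), and Timp1, Timp3 and Timp4 overlapped, as did Mmp2 and Mmp14. The 95% intervals of the log2 differences were -0.67 to 0.02 for Timp1, -0.28 to 0.70 for Timp3, -0.44 to 0.06 for Mmp2 and -0.14 to 0.29 for Mmp14. Marker sums were apart at week 1 too, and their part in these values was not tested: the 6 osteoblast markers summed to 8164 to 8749 CPM in Δ/Δ and 5212 to 7468 CPM in wt/wt, and the 7 MSC markers to 5371 to 6027 CPM and 3549 to 4613 CPM.

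By week 4 the genotypes had parted in 13 of the 28 tested members, 7 higher and 6 lower in Δ/Δ MSCs, against 9.2% and 6.46% of all genes tested (15.7% in either direction). The called members were, among the collagenases and stromelysins, Mmp13 and Mmp11 (both higher), among the membrane types Mmp17 (higher) and Mmp16 (lower), among the aggrecan and versican cutting enzymes Adamts5 and Adamts15 (both higher), among the procollagen N-proteinases Adamts2 and Adamts3 (both higher), the remaining Adamts17 and Adamts18 (both lower), and the inhibitors Timp1, Timp2 and Timp3 (all lower). Of these, Adamts18 passed the count filter only through wt/wt of week 4, the group where it was high, so its call adds no support to the count. The median log2 fold change of the 28 was 0.10, against 0.0024 for all genes. Groups did not overlap in 8 members that were higher and 7 that were lower in Δ/Δ, against 15.5% and 11.3% of all genes (26.8% in either direction); beside the called members these were Adamts1 and Adamts6.

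**Figure D3:**
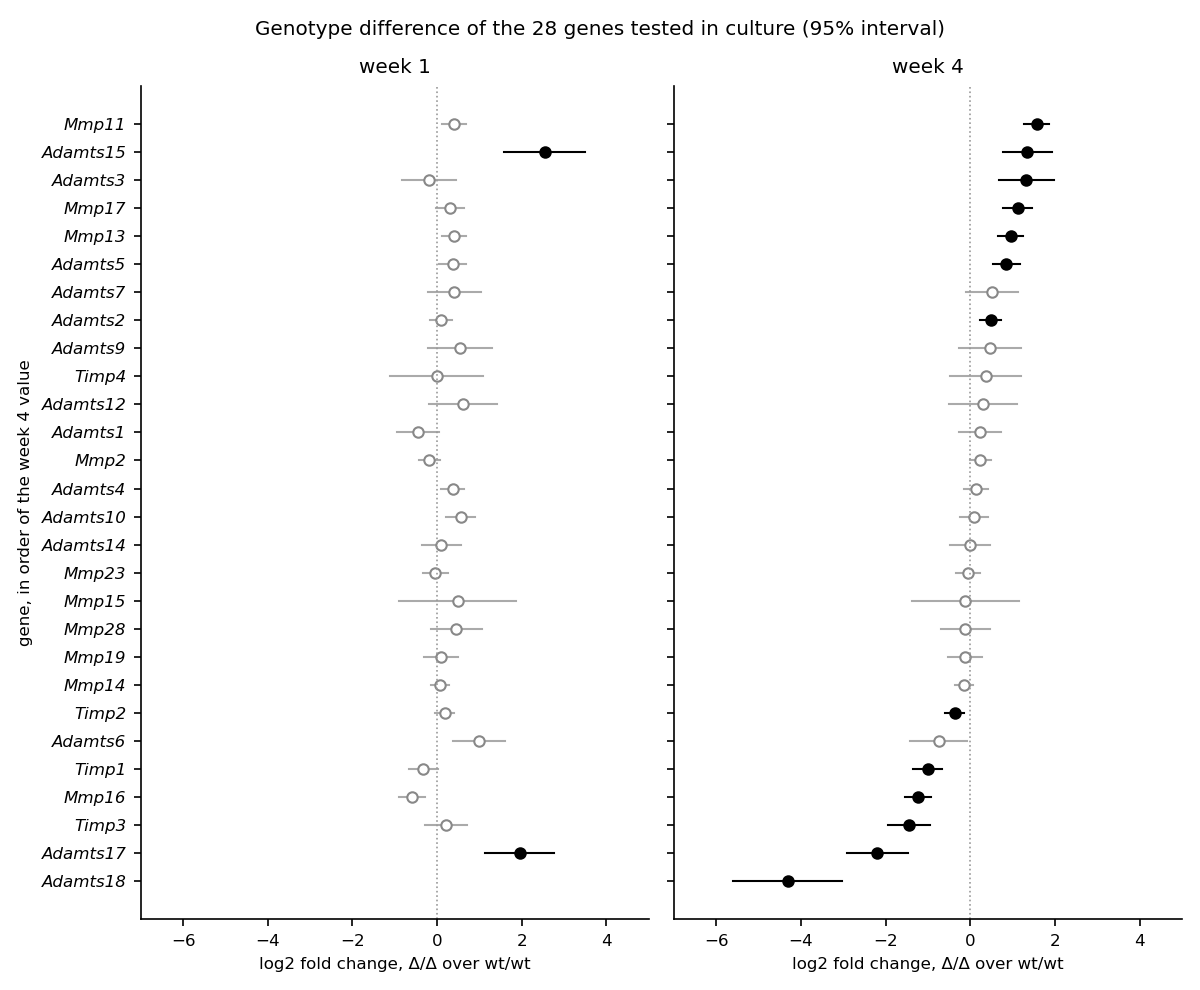
Log2 fold change of Δ/Δ over wt/wt at week 1 (left) and week 4 (right) for the members tested in culture, with 95% intervals; filled points passed an adjusted p of 0.05. Adamts18 is left out of the week 1 panel because it had no count in wt/wt. The panel of week 1 has 2 filled points, Adamts15 and Adamts17, and that of week 4 has 13, from -4.31 in Adamts18 to 1.57 in Mmp11.

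Among the metalloproteinases of week 4, Mmp11 (stromelysin-3, chromosome 10, 75923222 to 75936496), which is activated inside the cell by furin and cuts few matrix proteins, differed most in the upward direction. Its levels were 317, 262 and 339 CPM in Δ/Δ and 118, 104 and 87.1 CPM in wt/wt. Every Δ/Δ library was over 2 times the highest wt/wt library, and the fitted difference was 2.96-fold (log2 1.57 ± 0.13, adjusted p = 6.39e-06). Of its exon bases, 5.58% are shared with Chchd10 on the opposite strand, from which the unstranded libraries cannot separate it. Mmp13 (chromosome 9, 7272514 to 7283331) was at 2855, 3352 and 2744 CPM in Δ/Δ and at 1427, 1442 and 1719 CPM in wt/wt, without overlap, a 1.94-fold difference (log2 0.96 ± 0.13, adjusted p = 0.000345). Per kb of exon it was the highest of the protease genes in both genotypes at this time.

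The membrane-type genes moved in both directions. Mmp17, whose product (MT4-MMP) is held by a lipid anchor, was at 25.2, 22.5 and 25.2 CPM in Δ/Δ and 13.4, 10.7 and 9.6 CPM in wt/wt (log2 1.12 ± 0.16, adjusted p = 0.000394). Mmp16, a transmembrane type that can activate pro-MMP2, was at 19.5, 17.6 and 15.3 CPM in Δ/Δ and 39.1, 44.7 and 39.4 CPM in wt/wt (log2 -1.25 ± 0.14, adjusted p = 6.66e-05). In both the genotypes were apart. Mmp14, in contrast, overlapped at 542 to 663 against 645 to 732 CPM (log2 -0.15, 95% interval -0.37 to 0.06, adjusted p = 0.374), and so did its substrate gene Mmp2, at 662 to 765 against 552 to 667 CPM (0.23, -0.02 to 0.48, adjusted p = 0.227).

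**Figure D4:**
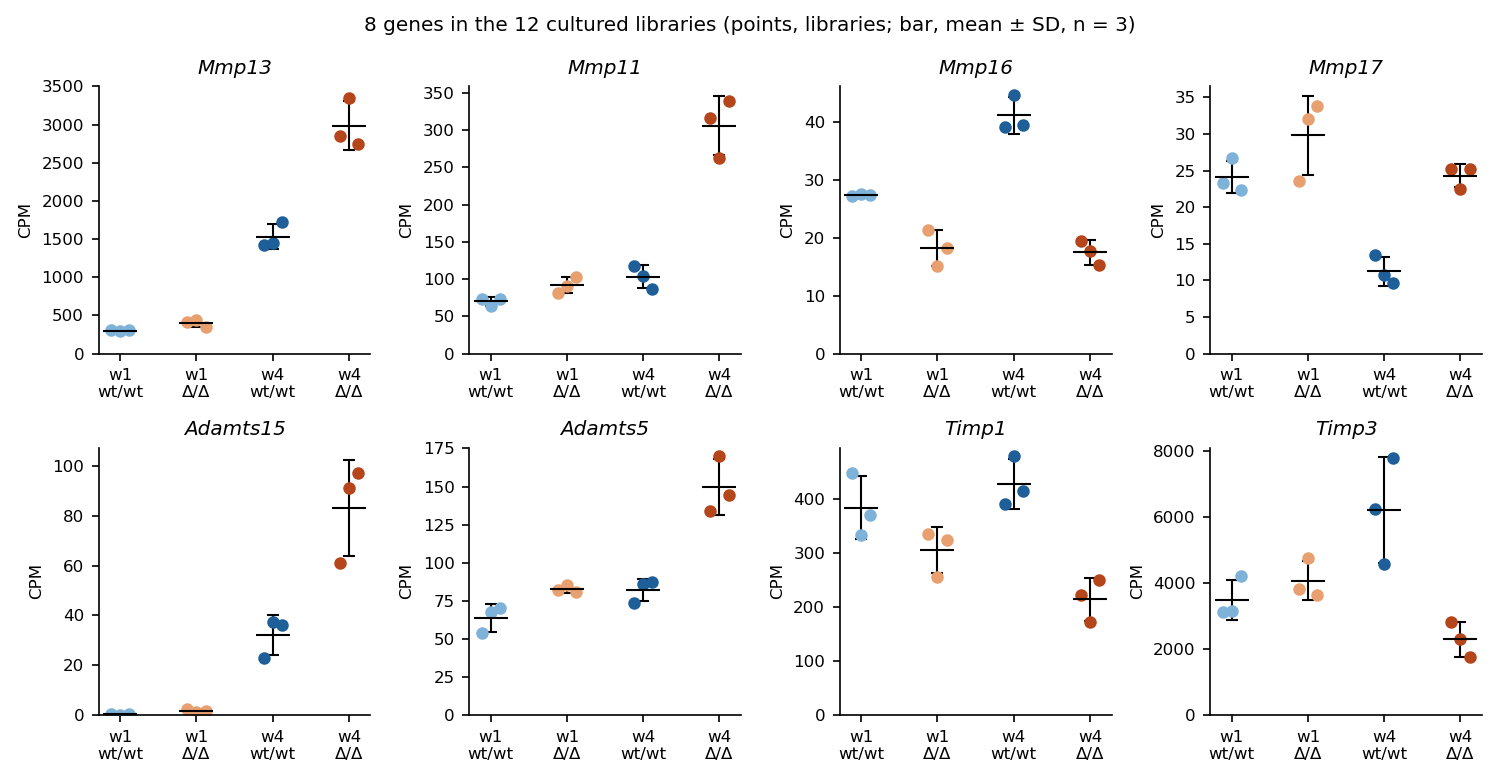
CPM of Mmp13, Mmp11, Mmp16, Mmp17, Adamts15, Adamts5, Timp1 and Timp3 in the 12 cultured libraries, on linear axes from 0; points are libraries and bars the mean ± SD (n = 3). At week 4 the Δ/Δ libraries of Mmp13, Mmp11, Mmp17, Adamts15 and Adamts5 all lie above the wt/wt libraries and those of Mmp16, Timp1 and Timp3 all lie below.

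Of the proteoglycan-cutting ADAMTS genes, Adamts5 and Adamts15 rose in Δ/Δ at week 4, while Adamts1, Adamts4 and Adamts9 were not called. Adamts5, the main aggrecanase of mouse cartilage, was at 134, 169.8 and 145 CPM in Δ/Δ and 73.8, 85.9 and 87 CPM in wt/wt (log2 0.85 ± 0.14, adjusted p = 0.00132). Adamts15 was at 61.2, 91 and 97.1 CPM against 23, 37.4 and 36.3 CPM (log2 1.35 ± 0.26, adjusted p = 0.0036). In both genes the lowest Δ/Δ library lay above the highest wt/wt library. Adamts1, the neighbour of Adamts5 on chromosome 16 (85793827 to 85901828 for the pair), was at 376 to 431 CPM in Δ/Δ and 302 to 363 CPM in wt/wt, which did not overlap but gave an adjusted p of 0.594. Adamts8, the neighbour of Adamts15 on chromosome 9 (30899155 to 30963838), was at or below 0.198 CPM in all cultures and was not tested. Acan, the aggrecan gene that names the group, was at or below 0.0885 CPM in all 12 cultures, although the 6 chondrocyte markers together summed to 1271 to 7964 CPM there, nearly all of it Col2a1.

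The procollagen N-proteinases, which trim the amino-terminal propeptides of fibrillar collagens, gave 2 calls of 3. Adamts2 was at 657, 527 and 694 CPM in Δ/Δ and at 478, 469 and 396 CPM in wt/wt (adjusted p = 0.0134). Its call was lost without wt/wt replicate 3, Δ/Δ replicate 1 or Δ/Δ replicate 3 (adjusted p = 0.0601, 0.0507 and 0.0696) and in a fit of the 6 libraries of week 4 alone (0.105). Adamts3 was low, at 1.54, 2.11 and 1.22 against 0.625, 0.531 and 0.698 CPM (log2 1.32 ± 0.30, adjusted p = 0.00811), and Adamts14 was at 8.8 to 11.9 against 6.95 to 12.9 CPM (adjusted p = 0.998). Both genes that fell among the remaining ADAMTS genes were near the limit of counting: Adamts17 stood at 0.393, 0.245 and 0.54 CPM in Δ/Δ and 1.48, 2.48 and 1.85 CPM in wt/wt (log2 -2.20 ± 0.33, adjusted p = 0.000556), and Adamts18 at 0, 0.0491 and 0.0441 against 0.859, 0.752 and 0.733 CPM (log2 -4.31 ± 0.58, adjusted p = 0.000523), which rests on 5 counts in Δ/Δ and 49 in wt/wt. Without Δ/Δ replicate 3 the value of Adamts18 was -4.91. Since Adamts18 was tested only because of its level in wt/wt of week 4, its calls against that group describe the counts and are not taken as support.

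Of the 4 inhibitors, 3 were lower in Δ/Δ MSCs at week 4. Timp3 (chromosome 10, 86300372 to 86349506) was at 2809, 2313 and 1749 CPM in Δ/Δ and 6251, 4576 and 7785 CPM in wt/wt (log2 -1.44 ± 0.23, adjusted p = 0.000829). The lowest wt/wt library was above the highest Δ/Δ library. Timp1 (chromosome X, 20870166 to 20874735) was at 222, 172 and 250.1 CPM against 391, 481 and 415 CPM (log2 -1.01 ± 0.16, adjusted p = 0.000849). Both kept these directions and calls in every alternative run. Timp2 was the smallest of the called differences, at 3675, 3077 and 3587 against 4267, 4556 and 4470.4 CPM (log2 -0.37 ± 0.11, adjusted p = 0.0331), and lost its call without wt/wt replicate 2 or 3 or without Δ/Δ replicate 2 or 3 (adjusted p = 0.0907, 0.0737, 0.0959 and 0.0629), when genes of few counts were kept in the fit, and in a fit of the 6 libraries of week 4 alone (0.15). Timp4 was near 0, at 0.858 to 0.884 against 0.489 to 1.01 CPM. Timp1, Timp3 and Timp4 each lie inside a synapsin gene on the opposite strand; Timp3 shares 21.3% of its exon bases with Syn3, which was counted at 0.384 to 1.26 CPM in culture.

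Without both replicate 1 libraries of week 4, the same 13 members were called. The sum of the osteoblast markers differed between the same groups: all 6 listed (Bglap, Ibsp, Sp7, Alpl, Dmp1 and Col1a1) were counted, and their summed level was 14029 to 17927 CPM in wt/wt and 4846 to 5748 CPM in Δ/Δ at week 4. Such a sum can be set by its most abundant genes and does not show that each marker moved. Markers of MSCs (7 of 7, mostly Cxcl12) summed to 7202 to 8924 CPM in wt/wt and 13649 to 17175 CPM in Δ/Δ. In bulk libraries a change in the share of a cell type and a change of RNA per cell cannot be told apart, and the part of these markers in the results was not tested. In culture the 6 osteoclast markers summed to at most 4.11 CPM, the 7 neutrophil markers counted to at most 1.77 CPM and the 5 endothelial markers to at most 6.68 CPM. The 6 macrophage markers summed to 7.14 to 10.8 CPM there. The 5 B cell markers summed to 151 to 426 CPM, with 4 of them under 1 CPM in all cultures.

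Between week 1 and week 4, wt/wt MSCs changed in 15 of the 28 members, 13 higher and 2 lower at week 4, against 17.9% and 16.1% of all genes (34% in either direction). Δ/Δ MSCs changed in 15 as well, 10 higher and 5 lower, against 18.8% and 16.3% (35.1%). Week 1 and week 4 did not overlap in 15 members that were higher and 3 that were lower in wt/wt, against 22.3% and 20% of all genes (42.3%), and in 11 and 6 in Δ/Δ, against 26.8% and 24% (50.8%). The medians over the 28 were 0.55 and 0.13 on the log2 scale, against -0.0082 and 0.0035 for all genes. Called higher at week 4 in both genotypes were Mmp11, Mmp13, Mmp23, Adamts2, Adamts9, Adamts15 and Timp4, and Adamts14 was called lower in both. These comparisons share libraries with those of the genotypes at each week, and their values are given side by side. Marker sums moved over the same time, and their part was not tested. The chondrocyte sum was 5643 to 7613 CPM at week 1 and 1271 to 3416 CPM at week 4 in wt/wt, and 7320 to 7964 and 1728 to 2366 CPM in Δ/Δ. The osteoblast sum was 5212 to 7468 and 14029 to 17927 CPM in wt/wt, and 8164 to 8749 and 4846 to 5748 CPM in Δ/Δ, and the MSC sum was higher at week 4 in both genotypes.

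Adamts15 showed the largest rise that rests on counts at both times. From 0.114 to 0.446 CPM at week 1, wt/wt cultures reached 23 to 37.4 CPM at week 4 (log2 6.77 ± 0.39, adjusted p = 1.59e-07), and Δ/Δ cultures went from 1.32 to 2.36 CPM to 61.2 to 97.1 CPM (5.58 ± 0.34, adjusted p = 2.72e-07). Mmp13 rose in both genotypes, by 2.33 ± 0.14 in wt/wt (adjusted p = 2.19e-07) and by 2.88 ± 0.14 in Δ/Δ (adjusted p = 8.39e-08), so that it was 5.01-fold and 7.38-fold higher at week 4. Mmp11 rose by 0.54 in wt/wt and by 1.71 in Δ/Δ, and Adamts2 by 0.75 and 1.14. The week 4 libraries of these 4 genes lay above all week 1 libraries of the same genotype.

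Other genes were called in 1 genotype alone, which does not show that the genotypes differ, or in both with opposite signs. In wt/wt, Mmp16 (0.57), Adamts10 (0.78), Timp2 (0.70), Timp3 (0.80), Adamts17 (2.64) and Adamts18 rose and Mmp17 fell (by 1.14). Adamts18 had 0 counts in the 3 wt/wt libraries of week 1 and 49 at week 4. With a floor of 3 counts over the week 1 group the difference was 21.9-fold, a value that leaves out the spread of the 49 counts. The gene passed the count filter only through these week 4 libraries, so its rise is not taken as support. In Δ/Δ, Mmp2 (0.48), Adamts3 (0.84) and Adamts5 (0.83) rose, and Adamts6 (-1.92), Adamts17 (-1.51), Timp1 (-0.53) and Timp3 (-0.85) fell. Timp3 and Adamts17 were the members called in opposite directions. Of the calls over time, single libraries decided those of Adamts9, Timp3 and Timp4 in wt/wt and of Adamts3, Adamts9, Timp1 and Timp4 in Δ/Δ. Without wt/wt week 1 replicate 1, the adjusted p was 0.0943 for Adamts9 and 0.0617 for Timp3. The other libraries with this effect in wt/wt were week 1 replicates 2 and 3 and week 4 replicates 1, 2 and 3, where the adjusted p of these 3 genes lay between 0.0511 and 0.0907 when it was lost. In Δ/Δ each of the 6 libraries ended at least 1 of the 4 calls, with adjusted p from 0.0524 to 0.144, and without week 1 replicate 2 the value of Timp4 was 2.75 in place of 1.87. With libraries thinned to the smallest, Timp4 over time in wt/wt was at 0.79 (adjusted p = 0.46).

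The test of the interaction, which asks if the genotype difference at week 4 was unlike that at week 1, called 8 members, 3 with a positive and 5 with a negative change, against 4.08% and 3.08% of all genes (7.15% in either direction). Mmp11 (log2 1.18 ± 0.19, adjusted p = 0.00186), Timp3 (-1.66 ± 0.32, adjusted p = 0.00653) and Adamts17 (-4.15 ± 0.50, adjusted p = 0.000265) were called whichever library was left out. Adamts17 was higher in Δ/Δ at week 1 and lower at week 4. For Adamts18, Adamts6, Mmp17, Adamts3 and Timp2 the call depended on single libraries. Mmp13 and Adamts15 were not called in this test (0.56, 95% interval 0.15 to 0.97, adjusted p = 0.111; -1.19, -2.33 to -0.05, adjusted p = 0.242), nor were Timp1 (-0.68, -1.17 to -0.19, adjusted p = 0.101) and Mmp16 (-0.65, -1.09 to -0.22, adjusted p = 0.0754).

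Genes that act with these enzymes were counted from 3 lists. At week 4, when 15.7% of all genes were called, 3 of 14 tested regulators (21.4%), 2 of 12 other matrix proteases (16.7%) and 5 of 10 matrix proteins that these enzymes cut or bind to (50%) were called, so that the shares of the first 2 lists lay near the background. Of the regulators, Pcsk5, a proprotein convertase (9.73, 11.3 and 11.7 CPM in Δ/Δ against 4.45, 6.37 and 4.82 CPM), and Adamtsl1, an ADAMTS-like protein without protease domain (42.3, 67.7 and 69 against 9.84, 23.1 and 21.2 CPM), were higher, and Adamtsl2 was lower (at most 0.0358 against 0.384 to 1.72 CPM). Adamtsl2 passed the count filter only through wt/wt of week 4, where it was high, so its calls against that group add no support to the counts of regulators. Reck, a membrane-anchored inhibitor of several metalloproteinases, rose over time in both genotypes (0.97 and 0.68 on the log2 scale) and was at 82.7 to 99.6 CPM in Δ/Δ and 70.8 to 89.4 CPM in wt/wt at week 4. The other matrix proteases called at week 4 were both higher in Δ/Δ: Ctsk (cathepsin K), at 164, 150.3 and 174 against 100.4, 110.5 and 99.7 CPM, and the sheddase gene Adam17. Fap, a serine protease of activated fibroblasts, was lower in Δ/Δ at week 1 (2.42 to 2.85 against 5.81 to 6.44 CPM, adjusted p = 0.000982). Of the matrix proteins, 3 were higher and 2 lower at week 4. Dcn (decorin) was at 97.3, 116 and 100.6 CPM against 34.6, 16.4 and 17.4 CPM, Lum (lumican) at 26.7, 30.4 and 17.1 against 0.547, 1.73 and 0.594 CPM, and Comp at 46.8 to 57.4 against 22.5 to 39.2 CPM, while Postn (periostin, 47.8 to 54.9 against 205 to 275 CPM) and Tnc (tenascin-C, 3140.3 to 4467 against 4396 to 10113 CPM, overlapping) were lower. At week 1 the lists gave 0, 1 (Fap) and 1 (Comp, higher) call, against 1.02% of all genes. Over time in wt/wt, where 17.9% of all genes rose and 16.1% fell, 6 of 14 regulators rose and 1 fell, 6 of 12 other proteases rose and 3 fell, and 5 of 10 matrix proteins rose and 1 fell. In Δ/Δ, where 18.8% rose and 16.3% fell, the counts were 5 and 1, 6 and 3, and 3 and 3. In sorted cells 0 of 18, 0 of 13 and 0 of 11 were called between genotypes.

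In sorted cells the same genes showed no difference between wt/Δ and Δ/Δ that passed the test. Of 34 tested members 0 were called by edgeR, as were 0% of the 14605 genes tested; at an unadjusted p under 0.05 there were 3 members (Timp1, Timp3 and Mmp17) and 12.3% of all genes, and DESeq2 called 409 genes, of which 1 was a member, Timp3. Groups did not overlap in 2 members, Timp3 and Adamts10, both higher in Δ/Δ, against 11.9% of all genes higher and 8.35% lower (20.3% in either direction). Timp3 was at 714, 841 and 944 CPM in Δ/Δ and 439.8, 493 and 597 CPM in wt/Δ (log2 0.63 ± 0.18, adjusted p = 0.271 by edgeR and 0.0351 by DESeq2). The remaining inhibitors overlapped, with Timp1 at 82.7 to 120.3 against 120.1 to 219 CPM, Timp2 at 872 to 1110.1 against 719 to 899 CPM, and Timp4 at 13.4 to 28.8 against 11.9 to 122 CPM. The highest value of Timp4 was that of wt/Δ replicate 1, and without that library the log2 difference turned from -1.46 to 0.50. Sex differed between these groups: 2 of 3 wt/Δ libraries and 0 of 3 Δ/Δ libraries had more counts of the Y-linked Ddx3y than of Xist, the rule by which sex was scored. With sex as a covariate the value was 0.68 for both Timp3 and Timp4. That fit sets the 3 Δ/Δ libraries against the single remaining wt/Δ library, so it cannot separate genotype from that library.

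Mmp9 (gelatinase B, chromosome 2, 164940780 to 164955850) was near 0 in culture and among the highest of these genes in sorted cells. It was at 1639.7, 2526 and 3434 CPM in wt/Δ and 1311, 1472 and 4445 CPM in Δ/Δ, and at or below 0.215 CPM in all 12 cultures. Mmp8, Mmp25 and Adamts18 had the same pattern at lower levels, under 1 CPM in every cultured library and above it in every sorted library: 53.6 to 132 CPM, 1.14 to 8.47 CPM and 2.31 to 5.15 CPM. Cultured and sorted cells differ in age, preparation and count table, so these levels are set side by side and were not tested. Between genotypes Mmp9 overlapped (log2 -0.15, 95% interval -1.25 to 0.96) and its sign depended on the library left out, and Mmp13, at 2360.3 to 4875 against 1944 to 4004 CPM, overlapped too (0.11, -0.67 to 0.89), as did Mmp2 (0.39, -0.15 to 0.93) and Mmp14 (0.07, -0.40 to 0.54).

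Markers of osteoclasts and neutrophils, which are known to make MMP9, were counted in every sorted library. A gate against CD45, TER119 and CD31, which the study's methods give for MSCs, would remove leukocytes, erythroid and endothelial cells. It is not named in the labels of these libraries, in which Ptprc (CD45) was at 27.8 to 61.5 CPM and Pecam1 (CD31) at 114 to 219 CPM. The 6 osteoclast markers summed to 552.98 to 1539.8 CPM in wt/Δ and 219.9 to 1139 CPM in Δ/Δ, led by Acp5, with Calcr at 0 in wt/Δ replicate 1 and Δ/Δ replicate 2. The 7 neutrophil markers counted (Ly6g was not in the table) summed to 1991 to 4246 CPM and 2352 to 4134 CPM, and the 5 endothelial markers to 883 to 1595 CPM and 1516 to 1684 CPM. The 6 macrophage markers summed to 454 to 705 CPM in wt/Δ and 436 to 958 CPM in Δ/Δ. For the 4 erythroid markers the sums were 118 to 235 CPM and 152 to 218 CPM. Megakaryocyte markers (5 of 5) were at 842 and 1513 CPM in Δ/Δ replicate 3 and wt/Δ replicate 2 and at 14.9 to 25.1 CPM in the other 4. In these 2 libraries Mmp10 was at 1.28 and 19 CPM, in the same order. The chondrocyte sum was also highest in wt/Δ replicate 2, at 597 CPM against 9.07 to 194 CPM in the other sorted libraries. Mmp9 was highest in Δ/Δ replicate 3 and wt/Δ replicate 3, whose osteoclast sums were 1139 and 1433 CPM, yet wt/Δ replicate 1 had the highest osteoclast sum at the third lowest Mmp9. The part of these cells in the values was not tested. Without the libraries rich in megakaryocyte markers, no member was called, and the log2 difference of Mmp9 was -0.90.

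**Figure D5:**
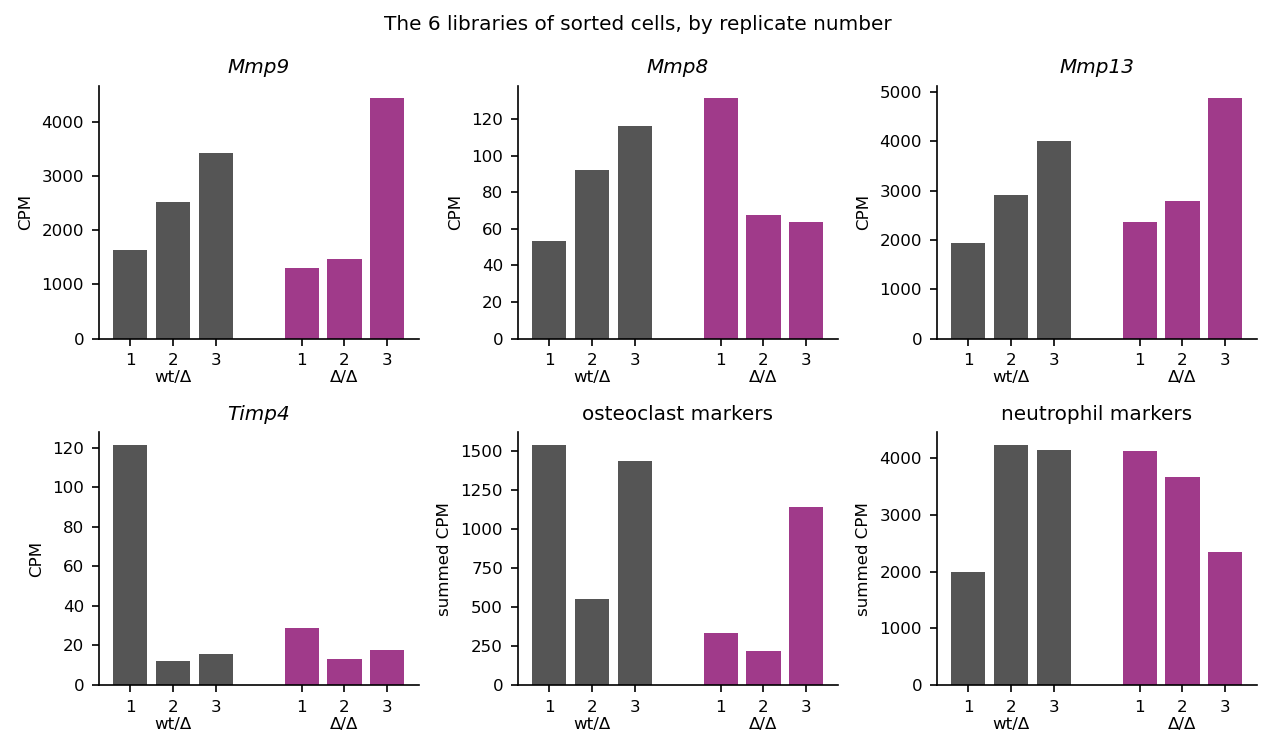
CPM of Mmp9, Mmp8, Mmp13 and Timp4 and the summed CPM of the osteoclast and neutrophil markers in the 6 libraries of sorted cells, by title and replicate number, on linear axes from 0. Mmp9 and Mmp13 overlap between wt/Δ and Δ/Δ, both are highest in Δ/Δ replicate 3, and Timp4 is highest in wt/Δ replicate 1 at 122 CPM.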

How the data were processed

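The count tables as deposited hold whole-number counts of reads per gene symbol, not normalized, which the authors made from SMART-Seq v4 and Nextera XT libraries (no strand kept) with HISAT2 2.0.4 and featureCounts 1.6.3 on mm10; the annotation and the treatment of multi-mapping reads are not given in the sources used here. All 46 symbols matching Mmp, Adamts and Timp were taken. Members, lists and tests were chosen with earlier results of these data known. Named were the 4 Timp genes, Mmp2, Mmp9, Mmp13, Mmp14 and every member past a test; others were given in counts and ranges.

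CPM were computed from the whole library (12807832 to 90717232 counts). Counts were tested with edgeR (quasi-likelihood, filterByExpr with a minimum count of 10, TMM, Benjamini-Hochberg over all genes, threshold 0.05), with the 12 cultured libraries in 1 fit of 4 groups and the 6 sorted libraries in another. Standard errors derive from the F statistic. Exon lengths and positions are those of GENCODE M21 (GRCm38), the assembly named mm10, and promoters are those of RefSeq (GRCm38.p6). R 4.3.3, edgeR 4.0.16 and DESeq2 1.42.0 were used. The fits were also run on simulated data in which only well-counted genes were changed, so that run does not check the calls of members of few counts.

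Deviations of same-numbered libraries from their group means correlated over time in wt/wt cultures at 0.15, 0.22 and 0.21, all over 0.1, so these numbers were taken to pair wt/wt libraries over time, from the data and not from the labels. No other pair of groups met this. Between the genotypes at week 4 the values were 0.64, 0.23 and -0.083.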

Additional observations from a re-analysis of the deposited data

Results flagged for a closer look

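A group of 8 members had a genotype difference at week 4 that differed from the one at week 1 in a test of the interaction (edgeR, adjusted p under 0.05). In log2, week 4 minus week 1, the difference was 1.18 for Mmp11, 0.81 for Mmp17, 1.51 for Adamts3, -1.73 for Adamts6, -4.15 for Adamts17, -8.77 for Adamts18, -0.55 for Timp2 and -1.66 for Timp3. The value of Adamts18 depends on the prior count of the fit, since wt/wt cells of week 1 had 0 counts and Δ/Δ cells 6. Adamts18 also passed the count filter only through wt/wt of week 4, so its call adds no support to the count of 8. Adamts6 was at 5.21, 6.48 and 4.44 CPM in Δ/Δ and 1.85, 2.35 and 3.87 CPM in wt/wt at week 1, and at 1.39, 1.77 and 1.25 against 1.87, 2.92 and 2.27 CPM at week 4, so the groups were apart in opposite directions at the 2 times. Neither genotype difference was called by edgeR (adjusted p = 0.137 at week 1 and 0.139 at week 4). Single libraries decided 5 of the 8 calls: Adamts18 lost it without Δ/Δ replicate 3 of week 1 (adjusted p = 0.069), Adamts6 without 4 of the 12 libraries in turn (adjusted p up to 0.0729), Mmp17 and Adamts3 without 10 each (up to 0.118 and 0.148) and Timp2 without 11 (up to 0.107).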

How the results depend on the processing

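Over 31 alternatives, the counts of members called at week 4 (13), over time in wt/wt (15) and over time in Δ/Δ (15) stayed within 1.5 times of these values; without 1 library in turn they were 11 to 13, 13 to 16 and 12 to 15. At week 1 the count of 2 became 0 when every library had to hold at least 10 counts, where Adamts15 and Adamts17 are no longer tested, 1 with a replicate block, 5 with DESeq2 (4 higher, 1 lower), 1 with libraries thinned to the smallest, and 0 to 3 without 1 library. The 8 of the interaction became 5 without a filter, 5 with at least 10 counts required, 4 when thinned and 4 to 9 without 1 library. The 0 of sorted cells became 1 (Timp3) with DESeq2 and stayed 0 without each library. The cause of the changes under DESeq2 and thinning was not tested. Where numbers were not taken to pair the libraries, the replicate block gave 12 members at week 4, 6 in the interaction and 0 in sorted cells. It ended the calls of Adamts17 at week 1, Timp2 at week 4, and Mmp17 and Timp2 in the interaction. Within wt/wt, where numbers were taken to pair libraries, the block gave 15 members over time, and it changed no call.

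Signs turned only in comparisons where the member was not called. Timp4 at week 1 went from -0.01 to 0.0033 without a filter, 0.031 with the replicate block, 0.029 with DESeq2, and between -0.89 and 0.55 without 1 library. In sorted cells, without 1 library, Timp4 lay between -1.94 and 0.50, Mmp13 between -0.24 and 0.34, Mmp14 between -0.024 and 0.23 and Mmp9 between -0.91 and 0.14. Chosen after seeing the data were sex as a covariate (Timp4 0.68), leaving out both libraries rich in megakaryocyte markers (Mmp13 -0.24, Mmp14 -0.054), the blocks within 1 genotype, and leaving out both replicate 1 libraries of week 4. Of 1067 values of single members, 953 kept direction and side of the threshold, 96 lost the call, 1 gained it and 17 turned. Adamts3, Adamts15, Adamts17, Adamts18 and Timp4 gave no value in culture with at least 10 counts required, nor did Timp4 at week 1 in a fit of 6 libraries. Members of few counts, such as Adamts18, are limited by depth.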
